A study of Mus musculus with 6 samples.

Results

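Transcripts of 8 chemokine receptor genes, Ccr1, Ccr2, Ccr6, Ccr9, Cxcr3, Cxcr4, Cxcr5 and Cxcr6, were compared between S100A4-positive and S100A4-negative cells sorted as effector-memory CD8+ T cells. The genes were chosen by name from the 55951 genes of the expression table, and each had 1 row. The cells came from the spleens of C57BL/6 mice that carried an S100A4-EGFP reporter, which reports cells expressing the small calcium-binding protein S100A4, and in which asthma had been induced with ovalbumin (OVA). All 6 libraries share this strain, reporter and model. The sort took CD3+ CD8+ cells without CD4 and with CD44, through 1 more effector-memory gate. EGFP-negative cells form the S100A4-negative group and EGFP-positive cells the S100A4-positive group, with 3 libraries each. Age is not given in the sources used here, nor is it said whether each library is 1 animal or a pool. If replicates are not separate mice, the p-values measure only the spread between these samples, which may be technical.

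Chemokine receptors are seven-pass membrane receptors coupled to inhibitory G proteins, and they steer leukocytes along gradients of chemokines. Effector T cells that enter inflamed tissue are known for Cxcr3 and Cxcr6, whereas Ccr1 and Ccr2 are best known from monocytes and other myeloid cells. Cxcr5 guides B cells and follicular helper T cells into B cell follicles, Ccr6 is carried by B cells and type 17 T cells, and Ccr9 directs lymphocytes to the small intestine and also marks plasmacytoid dendritic cells. Cxcr4 holds many leukocytes in bone marrow and lymphoid tissue, so several of these receptors serve steady-state homing as well as inflammation.

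Cxcr3, Cxcr6 and Cxcr5 were lower in S100A4-positive libraries and Ccr2 was higher. Mean FPKM (fragments per kilobase, scaled to sequencing depth) was 5.54-fold lower for Cxcr3, 2.91-fold lower for Cxcr6, 3.14-fold lower for Cxcr5 and 1.97-fold higher for Ccr2. The other 4 receptors, Ccr1, Cxcr4, Ccr6 and Ccr9, did not pass the test. A gene was called where limma, fitted to log2(FPKM + 1) over the 13241 genes whose mean FPKM reached 1, gave a Benjamini-Hochberg adjusted p under 0.05. All 8 receptors passed that filter on low values. Of all genes tested 62.3% were called, 19.0% higher and 43.4% lower in S100A4-positive libraries, so 1 of 8 higher and 3 of 8 lower is near the background of this comparison. After median-of-ratios rescaling, which shifts the median of all genes by 0.34, limma called 52.0% of genes (27.7% in the higher and 24.3% in the lower direction) and 6 receptors, Ccr1 and Cxcr4 joining the first 4. The median log2 fold change was -0.84 over the 8 receptors and -0.36 over all genes tested.

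The DNA before 3 of the transcription starts is shown because these receptors span the data: Cxcr3 and Cxcr6 both fell, and Cxcr4 had the highest level of the 8 in every library. Each stretch is the part of the 250 bases before the RefSeq start (GRCm38.p6) that also precedes the start of the gene in GENCODE M21. None of the 3 stretches lies in an annotated exon. Sequences run 5′ to 3′ on the strand of the gene, and capitals mark matches to the motifs described after them.
Cxcr3 (chrX:101734270-101734397, - strand): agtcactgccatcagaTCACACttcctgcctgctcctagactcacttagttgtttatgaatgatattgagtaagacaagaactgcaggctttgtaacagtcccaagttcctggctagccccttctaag
Cxcr6 (chr9:123806227-123806474, + strand): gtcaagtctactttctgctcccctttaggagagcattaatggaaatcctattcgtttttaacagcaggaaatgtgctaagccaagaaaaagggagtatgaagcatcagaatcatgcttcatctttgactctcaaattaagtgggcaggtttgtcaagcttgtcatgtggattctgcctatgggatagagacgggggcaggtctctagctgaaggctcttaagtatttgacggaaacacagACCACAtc
Cxcr4 (chr1:128592300-128592549, - strand): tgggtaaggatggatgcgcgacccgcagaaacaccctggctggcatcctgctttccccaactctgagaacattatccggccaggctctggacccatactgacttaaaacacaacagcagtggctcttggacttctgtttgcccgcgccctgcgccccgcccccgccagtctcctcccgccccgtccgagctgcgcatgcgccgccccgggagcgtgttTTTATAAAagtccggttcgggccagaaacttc

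The 250-base windows of the receptors and all 32851 windows in the RefSeq table were searched on both strands for 4 short motifs. The core bound by RUNX factors, spelled TGTGGT, was found in 14.0% of all windows. The core of T-box factors, which is TCACAC, was found in 12.3% of them. For the myeloid and B cell factor PU.1 the core searched was GAGGAA, which 23.3% of windows held. The TATA box, written TATAAA, was in 12.4%. A RUNX core stood in the windows of Cxcr3, Cxcr6 and Ccr1, with 1 match each (110, 10 and 58 bases before the start), and the T-box core only in that of Cxcr3 among the 7 receptors with a window. The PU.1 core was found in the windows of Cxcr3, Ccr1 and the first of 2 Ccr6 windows. The RUNX and PU.1 matches of Cxcr3 lie nearer the RefSeq start than the printed stretch reaches, so only its T-box core is in capitals. Cxcr4 alone of the 7 had the TATA box, matched on both strands by overlapping letters 32 and 30 bases before the start. The Cxcr4 window also had the most CG pairs, 19 against 1 to 7 in the others and a median of 6 over all windows. These matches describe letters, not binding.

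Before the results, the make-up of the libraries has to be given, since it moved with the groups. From the deposited values 14925260 to 18660188 reads per library could be recovered. S100a4 itself stood at 0, 0.405 and 0.129 FPKM in S100A4-negative libraries and at 1.27, 4.02 and 1.52 in S100A4-positive ones, from at most 25 reads. All 13 T cell markers and both CD8 coreceptor genes fell, and their summed FPKM ranged from 2206 to 2831 against 374.5 to 512.8 for T cells and from 178 to 373 against 25.4 to 52.7 for CD8 (S100A4-negative against S100A4-positive). Cd3e, a chain of the T cell receptor complex, fell from 146 ± 19.1 to 23.5 ± 6.20 FPKM (SD, n = 3 per group). All 12 macrophage markers rose, with sums of 449 to 636 against 6444 to 7296 FPKM, and so did 7 of 8 patrolling monocyte markers (745 to 867 against 2093 to 2606) and all 7 conventional dendritic cell markers (43.9 to 69.8 against 359 to 494.5). Of the last, 4 were called when S100A4-positive replicate 2 was left out and 4 when replicate 3 was, with Clec9a, Xcr1 and Zbtb46 no longer passing (limma adjusted p = 0.0527 to 0.104). Csf1r, a growth factor receptor of macrophages, was at 22.6 ± 9.88 and 1040 ± 204 FPKM and Cd8a, a CD8 chain, at 137 and 22.6 in the group means (S100A4-negative and S100A4-positive). Purity of the sort is not given in the sources used here and was not tested, and the group names below stand for the sorted fractions as labelled. Of 6 classical monocyte markers 4 rose and 1 fell (452 to 549 against 619.5 to 1681), and 7 of 9 B cell markers fell (525 to 1594 against 288 to 479). Among these, Blk, Ebf1 and Ms4a1 were no longer called when S100A4-negative replicate 2 was left out (limma adjusted p = 0.0556 to 0.0884), nor were Ebf1 and Ms4a1 without S100A4-positive replicate 2 (0.0581 and 0.0863). For plasma cells 6 of 7 markers fell and 1 rose (1198 to 2670 against 318 to 616), for neutrophils 9 of 11 fell and 1 rose (3348 to 4951 against 520.3 to 1905), and for natural killer cells 3 of 4 tested fell (55.1 to 111 against 8.28 to 19.6). Of 8 plasmacytoid dendritic cell markers 1 rose and 2 fell (322 to 601 against 387 to 468), of 7 genes of follicular helper-type CD4 cells 1 rose and 5 fell (218 to 597 against 128 to 172), and 3 of 3 tested type 17 genes rose. The plasmacytoid marker that rose, Bst2, was not called without S100A4-negative replicate 1 or 2 or S100A4-positive replicate 3 (limma adjusted p = 0.0595 to 0.0777). Of the type 17 genes, Il1r1 was not called without S100A4-negative replicate 1 or 3 or S100A4-positive replicate 2 or 3 (limma adjusted p = 0.0568 to 0.11). The natural killer gene Klrb1c was not called without replicate 1 or 3 of either group (limma adjusted p = 0.104 to 0.129). Beside these counts, 19.0% of all genes tested were called higher and 43.4% lower in S100A4-positive libraries. No marker of any of these lists was at 0 in every library. In such bulk RNA, fewer cells of a type and less RNA per cell cannot be told apart.

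**Figure D1:**
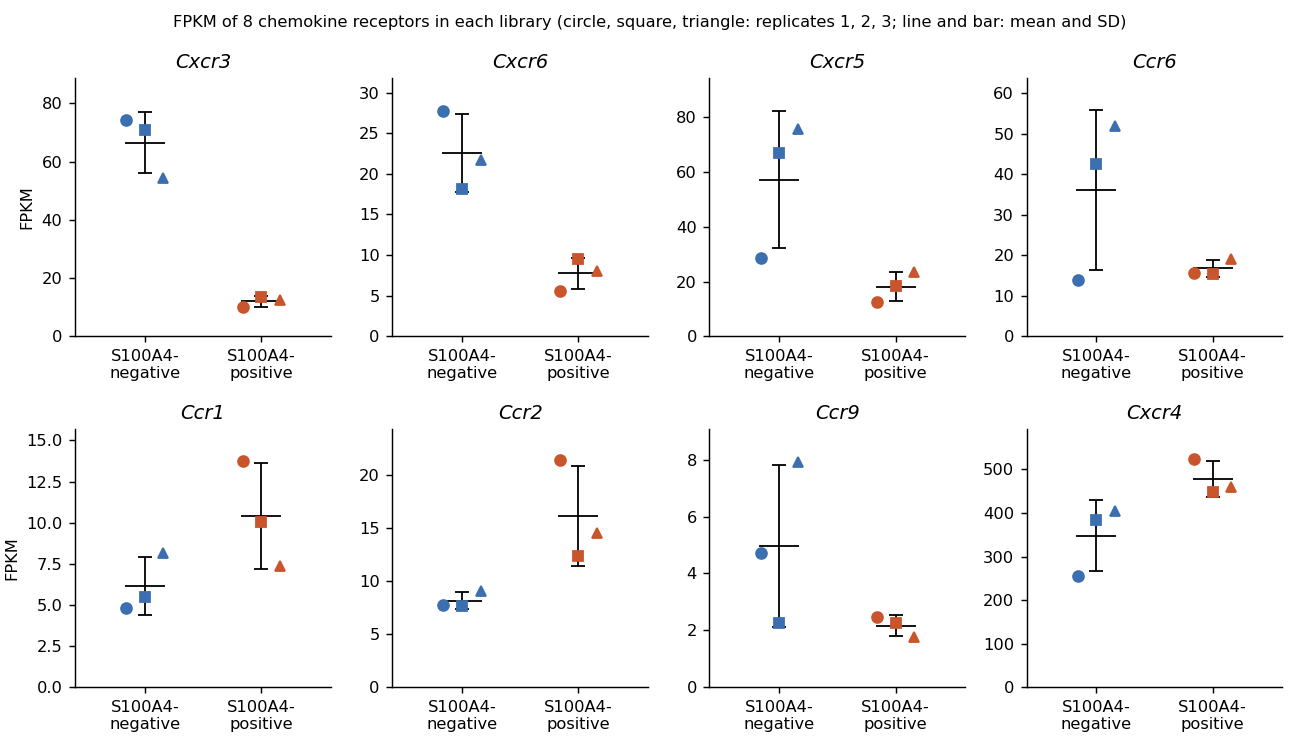
FPKM of each receptor (vertical axis, separate scale in each panel) in the 3 S100A4-negative and 3 S100A4-positive libraries; symbols mark replicates, and the line and bar give the mean and SD. The groups are apart for Cxcr3, Cxcr6, Cxcr5, Ccr2 and Cxcr4 and overlap for Ccr6, Ccr1 and Ccr9.

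Cxcr3, the receptor for the interferon-induced chemokines Cxcl9 and Cxcl10, had the largest log2 fold change of the 8. It stood at 74.3, 71.0 and 54.5 FPKM in S100A4-negative replicates 1, 2 and 3 and at 10.1, 13.6 and 12.4 in the S100A4-positive ones. Every S100A4-positive library lay far below every S100A4-negative one, and the spread within each group was small (coefficients of variation of 15.9% and 15.1%). The log2 fold change was -2.37 (SE 0.17, limma adjusted p = 5.63e-05), on the log2(FPKM + 1) scale that holds for all fold changes from limma here and that understates the change of low genes. Cxcr3 (ENSMUSG00000050232) lies on chromosome X, 101731535 to 101734269 of GRCm38, on the - strand, and shares no exon base with another gene.

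Cxcr6 binds the membrane-bound chemokine Cxcl16 and is known from effector and tissue-resident T cells. Its FPKM was 27.7, 18.2 and 21.7 in S100A4-negative libraries and 5.65, 9.51 and 8.09 in S100A4-positive libraries, again with no overlap. The log2 fold change was -1.43 (SE 0.22, limma adjusted p = 0.00129). Replicate 1 was the highest of the S100A4-negative and the lowest of the S100A4-positive libraries. Cxcr6 (ENSMUSG00000048521; chromosome 9, 123806475 to 123811760, + strand) stands within the gene Fyco1 on the other strand without sharing exon bases.

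Since T cell transcripts as a whole were lower, each receptor was also set against the mean FPKM of Cd3d, Cd3e and Cd3g in the same library. On this measure Cxcr3 was 0.485, 0.417 and 0.379 in S100A4-negative and 0.497, 0.573 and 0.355 in S100A4-positive libraries. The groups overlapped (exact two-sided permutation p = 0.6, 0.6 after Benjamini-Hochberg adjustment over the 8 receptors), and the log2 ratio of the means, 0.15, turned to -0.0025 without S100A4-positive replicate 2. Mean FPKM was 5.54-fold lower for Cxcr3 and 6.21-fold lower for Cd3e. Cxcr6 per CD3 was higher in each S100A4-positive library, at 0.279, 0.400 and 0.232 against 0.181, 0.107 and 0.151. The exact two-sided permutation test gave p = 0.1, the smallest that 3 against 3 allows (0.133 adjusted). The mean ratio was 0.146 ± 0.0373 and 0.304 ± 0.0864 (SD, n = 3 each). The CD3 chains themselves had log2 fold changes of -2.66, -2.61 and -2.4, against a median of -0.36 for all genes tested. A gene at that median therefore rises on this measure. The mean ratio of every receptor rose, from a log2 ratio of 0.15 for Cxcr3 to 3.65 for Ccr2. No background of other genes was computed, so a higher ratio is not a trait of a receptor. The part of T cell content in either fall was not tested beyond these ratios.

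**Figure D2:**
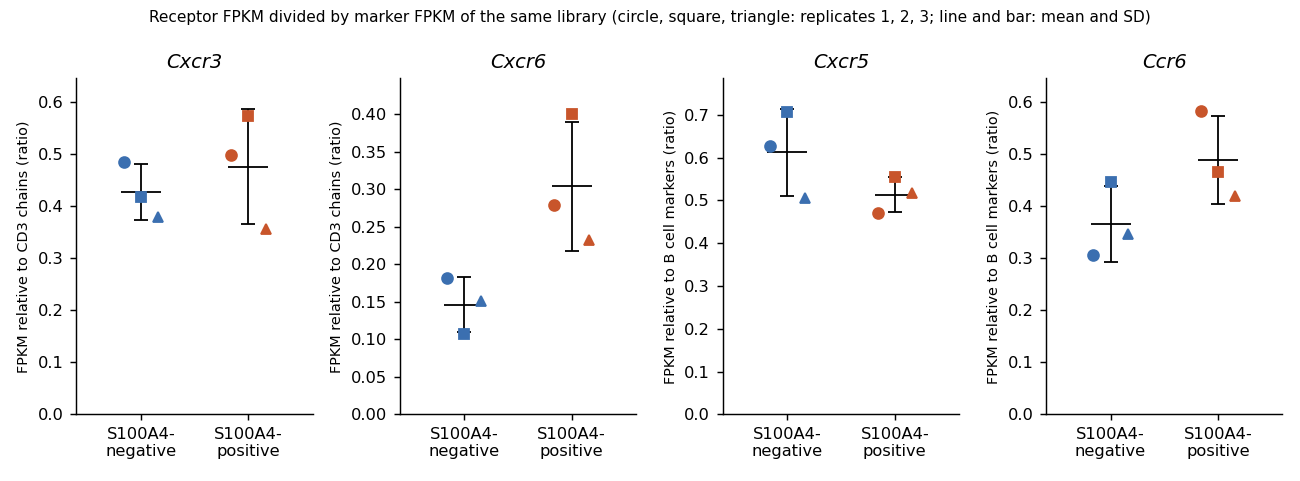
Receptor FPKM divided by marker FPKM of the same library, for Cxcr3 and Cxcr6 (mean of 3 CD3 chains) and for Cxcr5 and Ccr6 (geometric mean of 9 B cell markers). Symbols mark replicates, and the line and bar give mean and SD; the groups overlap for Cxcr3, Cxcr5 and Ccr6, whereas Cxcr6 is at 0.232 or more in S100A4-positive and 0.181 or less in S100A4-negative libraries.

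Cxcr5, the receptor for the follicle chemokine Cxcl13, was at 28.7, 67.0 and 75.5 FPKM in S100A4-negative replicates 1, 2 and 3 and at 12.7, 18.3 and 23.5 in S100A4-positive ones. The groups did not overlap, but S100A4-negative replicate 1 stood closer to the S100A4-positive libraries than to the other two of its group. The log2 fold change was -1.53 (SE 0.38, limma adjusted p = 0.0101). Cxcr5 (ENSMUSG00000047880; chromosome 9, 44511787 to 44561877, - strand) shares 3.30% of its exon bases with Bcl9l on the other strand, which was itself at 40.6 and 12.7 FPKM in the group means. Without a stated strand setting, reads over those bases cannot be assigned to either gene.

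Levels of Cxcr5 moved with B cell markers from library to library. The summed FPKM of the 9 B cell markers was 525, 1047 and 1594 in S100A4-negative replicates 1, 2 and 3 and 288, 351 and 479 in the S100A4-positive ones, the same order as Cxcr5 in all 6. Divided by the geometric mean of these markers, a measure added after the values were seen, Cxcr5 was 0.626, 0.707 and 0.505 in S100A4-negative and 0.470, 0.553 and 0.516 in S100A4-positive libraries. The groups overlapped (exact two-sided permutation p = 0.3, adjusted 0.4). Relative to the CD3 chains, by contrast, Cxcr5 was 0.187, 0.394 and 0.525 against 0.627, 0.768 and 0.675, higher in each S100A4-positive library (exact two-sided permutation p = 0.1, adjusted 0.133). The fall of the CD3 chains by itself raises this ratio. The part of B cell transcripts in the fall of Cxcr5 was not tested further.

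Ccr6, the receptor for Ccl20, was at 14.0, 42.4 and 51.8 FPKM in S100A4-negative libraries and at 15.8, 15.4 and 19.1 in S100A4-positive libraries. S100A4-negative replicate 1 lay below all S100A4-positive libraries, and the other two lay far above them. The difference of -0.88 (SE 0.43) did not pass (limma adjusted p = 0.111). Without S100A4-negative replicate 1 it was -1.44 (limma adjusted p = 0.00105). That library also had the lowest B cell marker sum of its group. Per B cell marker, Ccr6 was 0.306, 0.448 and 0.346 against 0.584, 0.466 and 0.420, with the S100A4-positive mean higher and the ranges overlapping (exact two-sided permutation p = 0.2, adjusted 0.4). Type 17 T cells also carry Ccr6, and their summed markers were at 1.62, 7.18 and 1.55 FPKM in S100A4-negative and 11.1, 13.9 and 10.04 in S100A4-positive libraries. Ccr6 (ENSMUSG00000040899) lies on chromosome 17, 8236043 to 8257141, on the + strand.

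Ccr2, the receptor for Ccl2 and Ccl7 that releases classical monocytes from bone marrow, was the receptor that rose. It was at 7.76, 7.66 and 9.06 FPKM in S100A4-negative libraries and at 21.4, 12.3 and 14.6 in S100A4-positive libraries. The groups did not overlap, and S100A4-positive replicate 1 was the highest. The log2 fold change was 0.87 (SE 0.20, limma adjusted p = 0.00824). Ccr2 (ENSMUSG00000049103) lies on chromosome 9, 124101950 to 124113557, on the + strand. Its receptor family holds similar genes, and whether some reads were assigned to the wrong gene was not tested.

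Ccr1, which binds Ccl3, Ccl5 and Ccl9, stood at 4.84, 5.50 and 8.13 FPKM in S100A4-negative and 13.8, 10.1 and 7.36 in S100A4-positive libraries. S100A4-negative replicate 3 lay above S100A4-positive replicate 3, so the groups overlapped. The difference of 0.66 (SE 0.26) missed the threshold (limma adjusted p = 0.0550). It was called without S100A4-negative replicate 3 (0.85, limma adjusted p = 0.0346) and without S100A4-positive replicate 3 (0.86, limma adjusted p = 0.0272). After median-of-ratios rescaling, it was 1.00 and called (limma adjusted p = 0.0125). Ccr1 (ENSMUSG00000025804) lies on chromosome 9, 123962124 to 123968692, on the - strand.

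Within the S100A4-positive group, replicate 1 had the highest level of Ccr1, Ccr2 and the classical monocyte list, whose sums were 1681, 1084 and 619.5 FPKM in replicates 1, 2 and 3. Most of each sum was Chil3, at 1411, 843.6 and 443.5 FPKM. Ccr2 was lower in replicate 2 (12.3 FPKM) than in replicate 3 (14.6), the reverse of the sums. Of the 6 genes of that list, 5 were highest in replicate 1 within the group and Ms4a4c was lowest there (70.6, 85.4 and 85.0 FPKM). The list did not move as one between the groups. F13a1, a coagulation factor gene of monocytes, was 45.4-fold higher in the mean and Ms4a4c 2.92-fold higher, whereas Fcnb fell by 1.78 on the log2 scale and Ly6c2 had a difference of -0.36 that did not pass (limma adjusted p = 0.264). The mean of Ccr2, 1.97-fold higher, lay between these. Macrophage marker sums were 7296, 6568 and 6444 FPKM within the group. These genes were chosen after their values were seen. The part of myeloid transcripts in the rise of Ccr2 was not tested.

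Ccr9, the receptor for the gut chemokine Ccl25, was the lowest of the 8 in both group means. Its FPKM was 4.71, 2.25 and 7.93 in S100A4-negative and 2.46, 2.28 and 1.76 in S100A4-positive libraries, from 116 to 561 reads. S100A4-negative replicate 2 lay among the S100A4-positive libraries, and the difference of -0.80 (SE 0.35) did not pass (limma adjusted p = 0.0773). Without that library it was -1.18 and was called (limma adjusted p = 0.00936). S100A4-negative replicate 3, the highest for Ccr9, was also the highest for Siglech, a receptor of plasmacytoid dendritic cells, at 16.2 FPKM against 2.67 to 5.61 in the other 5 libraries. The rest of the plasmacytoid list was mixed. Tcf4 (82.6 FPKM), Ly6d (201), Klk1 (5.03) and Cox6a2 (3.94) were also highest in that library. By contrast, Runx2 was lowest there (45.8 FPKM), and Bst2 (80.7) was below all S100A4-positive libraries. Irf8 (165.9) was below S100A4-positive replicates 2 and 3 (166.6 and 193). Ccr9 (ENSMUSG00000029530; chromosome 9, 123678439 to 123784330, + strand) shares 21.5% of its exon bases with other genes, among them Slc6a20a on the other strand. Slc6a20a was at 0.12 and 0.256 FPKM in the group means.

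Cxcr4, the receptor for Cxcl12, was by far the most abundant. It stood at 254.8, 384.6 and 405.4 FPKM in S100A4-negative and 524.4, 447.9 and 460.4 in S100A4-positive libraries. The groups did not overlap, as for 5 of the 8 receptors (2 higher, 3 lower) and 70.0% of all genes tested (20.9% higher, 49.1% lower), yet the difference of 0.48 (SE 0.20) did not pass (limma adjusted p = 0.0665). It was called after median-of-ratios rescaling (0.87, limma adjusted p = 0.00825). S100A4-negative replicate 1 was the low library here, and without it the difference was 0.27 (limma adjusted p = 0.16). Per CD3 chain Cxcr4 was 1.66, 2.26 and 2.82 against 25.9, 18.8 and 13.2, higher in each S100A4-positive library (exact two-sided permutation p = 0.1, adjusted 0.133). As for Cxcr5, the fall of the CD3 chains by itself raises this ratio. Cxcr4 (ENSMUSG00000045382) lies on chromosome 1, 128588199 to 128592293, on the - strand.

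**Figure D3:**
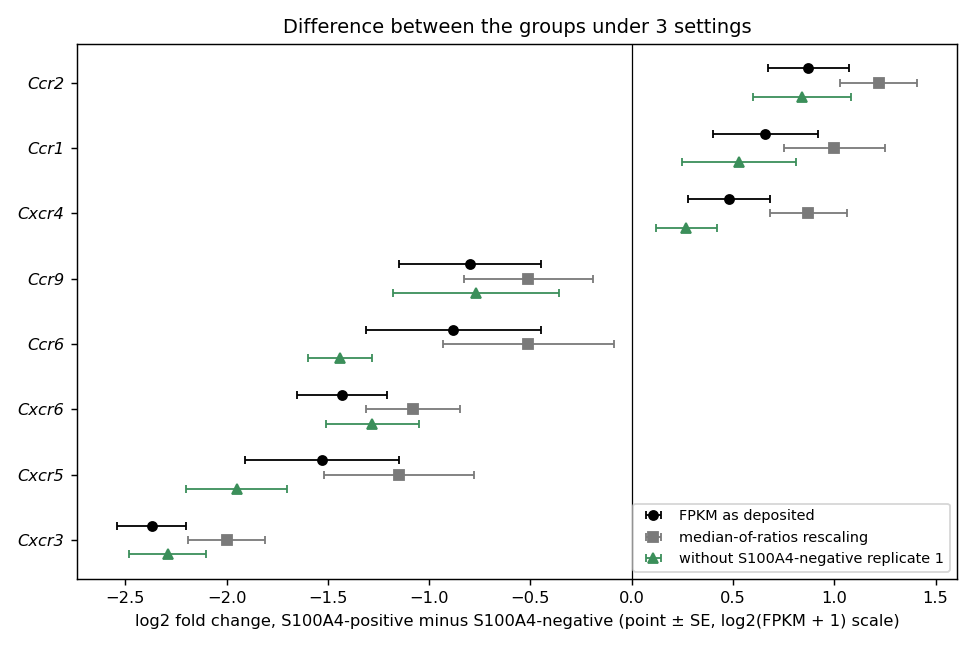
Log2 fold change of each receptor (S100A4-positive minus S100A4-negative, point and SE from limma) for the deposited FPKM, for rescaled FPKM (median of ratios) and without S100A4-negative replicate 1. Cxcr3, Cxcr5 and Cxcr6 are below 0 and Ccr2 above 0 in all 3; rescaling moves every point to the right, and Ccr6 moves from -0.88 to -1.44 without the library.

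The authors' deposited table called 5 of the 8 receptors, against 18.9% of its 28627 genes with an adjusted p. Those 28627 include genes under the mean FPKM filter that all 8 receptors passed, so this share is not a like-for-like background. With that filter limma called 62.3% of genes. Ccr1, Ccr2 and Cxcr4 had log2 fold changes of 1.15, 1.36 and 0.84 in the authors' deposited table and Cxcr3 and Cxcr6 of -2.08 and -1.15. Cxcr5, at -1.26, was not called in the authors' deposited table (adjusted p = 0.0844). The direction was the same as with limma for all 8. Calls differed for Ccr1, Cxcr4 and Cxcr5. Over all genes, limma called 31.1% without a filter, 65.3% with a filter of 5, 54.5% after quantile normalization, 62.2% with voom on library totals, 51.9% with size-factor voom and 66.9% with the replicate number in the fit. Leaving out S100A4-negative replicate 1, 2 or 3 it called 55.0%, 55.6% or 52.0%, and leaving out S100A4-positive replicate 1, 2 or 3 61.7%, 54.0% or 54.6%.

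The order of the receptors differed between the groups. In S100A4-negative libraries mean FPKM ran from Cxcr4 (348) through Cxcr3 (66.6), Cxcr5 (57.1), Ccr6 (36.1), Cxcr6 (22.6), Ccr2 (8.16) and Ccr1 (6.16) to Ccr9 (4.96). Among neighbours in this order, only Cxcr4 and Cxcr3, and Cxcr6 and Ccr2, had ranges that did not overlap. In S100A4-positive libraries the order was Cxcr4 (478), Cxcr5 (18.2), Ccr6 (16.8), Ccr2 (16.1), Cxcr3 (12.0), Ccr1 (10.4), Cxcr6 (7.75) and Ccr9 (2.17). Among neighbours there, the ranges were apart only between Cxcr4 and Cxcr5 and between Cxcr6 and Ccr9. Receptors farther apart in the order could still differ: Cxcr6 (up to 9.51) lay below every value of Cxcr5, Ccr6, Ccr2 and Cxcr3, and Ccr6 (15.4 or more) above every value of Cxcr3 and Ccr1.

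The summed FPKM of the 8 receptors was 417, 599 and 634 in S100A4-negative and 606, 529 and 547 in S100A4-positive libraries, which overlapped. Without Cxcr4 the sum was 162, 214 and 229 against 81.8, 81.5 and 86.9. Cxcr4 held 61.1% to 64.3% of the sum in S100A4-negative and 84.1% to 86.5% in S100A4-positive libraries, and Cxcr3 held 8.59% to 17.8% against 1.66% to 2.57%. Shares of Cxcr5 and Cxcr6 were likewise lower, and those of Ccr1 and Ccr2 higher, in every S100A4-positive library (exact two-sided permutation p = 0.1 each, the smallest possible; 0.133 adjusted over the 8). The shares of Ccr6 and Ccr9 overlapped (exact two-sided permutation p = 0.2 and 0.3). The higher shares depended on the set. Among 22 listed chemokine receptors the log2 ratio of Cxcr4 was -0.04 against 0.43 among the 8, that of Ccr1 was 0.30 against 0.71 and that of Ccr2 was 0.51 against 0.90 (exact two-sided permutation p = 0.9, 0.9 and 0.7 among the 22). The lower shares of Cxcr3, Cxcr5 and Cxcr6 were at p = 0.1 in the same exact permutation test among the 22.

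**Figure D4:**
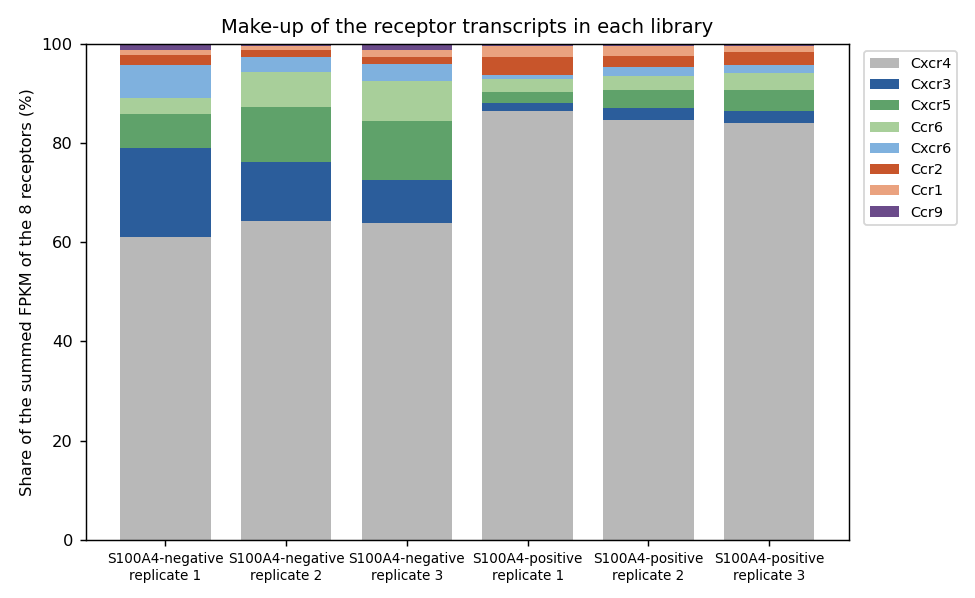
Share of each receptor in the summed FPKM of the 8 receptors (%), 1 stacked bar per library. Cxcr4 takes 61.1% to 64.3% in S100A4-negative and 84.1% to 86.5% in S100A4-positive libraries, and the Cxcr3 segment 8.59% or more against 2.57% or less.

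Of 14 other chemokine receptor genes, a list that does not hold every such gene of the mouse, 12 passed the filter. The test called 4 higher and 5 lower and left 3 uncalled. Of all genes tested, 19.0% were called higher and 43.4% lower, so the count of lower ones is near that background. Their median log2 fold change was -0.34, against -0.36 for all genes tested. The 4 that rose did so by more than Ccr2: Ccrl2, an atypical receptor that does not signal as others do, by 3.11, Cx3cr1, the fractalkine receptor of patrolling monocytes, by 3.09, Cxcr1, a neutrophil receptor, by 2.12 and Xcr1, a receptor of cross-presenting dendritic cells, by 1.54. Cxcr1 was at 0.0915, 0.480 and 0.624 FPKM in S100A4-negative libraries, from 2 to 15 reads, and at 4.95, 6.55 and 3.76 in S100A4-positive libraries. Xcr1 was at 1.007 FPKM in S100A4-positive replicate 1 and at 7.30 and 6.34 in replicates 2 and 3, and it kept its call only when S100A4-positive replicate 1 was left out; with any of the other 5 libraries left out its limma adjusted p was 0.0634 to 0.104. Leaving out S100A4-negative replicate 2, or S100A4-positive replicate 2 or 3, brought the number that fell to 2; it was 3 when S100A4-negative replicate 3 or S100A4-positive replicate 1 was left out.

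Chemokines that bind the 8 receptors were measured in the same libraries. Of 16 ligand genes 10 passed the filter, of which 7 rose and 1 fell while 2 stayed uncalled (median 2.65, against -0.36 for all genes tested). The share of all genes tested was 19.0% called higher and 43.4% called lower. Cxcl16, the ligand of Cxcr6, was at 2.01, 2.07 and 5.57 FPKM in S100A4-negative and 95.9, 141 and 141 in S100A4-positive libraries, a log2 fold change of 4.99 (SE 0.32), while Cxcr6 fell. Cxcl9, a ligand of Cxcr3, likewise rose, from 0.434, 1.07 and 3.22 to 7.24, 29.8 and 24.4 FPKM, as Cxcr3 fell. Ccl2, a ligand of Ccr2, rose by 4.16 (SE 0.42) from 0.493, 0.0589 and 0.393 to 10.4, 29.1 and 35.7 FPKM, and Ccl9, a ligand of Ccr1, by 3.33 (SE 0.52). The ligands of Cxcr4, Cxcr5 and Ccr6, which are Cxcl12, Cxcl13 and Ccl20, were all under the filter. The ligand that fell was Ccl25, named after its values were seen, by 0.86; its limma adjusted p was 0.0516 to 0.0546 when S100A4-negative replicate 3 or S100A4-positive replicate 2 or 3 was left out. In all, 0 ligands were called lower when S100A4-negative replicate 3 was left out, 0 when S100A4-positive replicate 2 was, and 2 when S100A4-positive replicate 1 was.

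**Figure D5:**
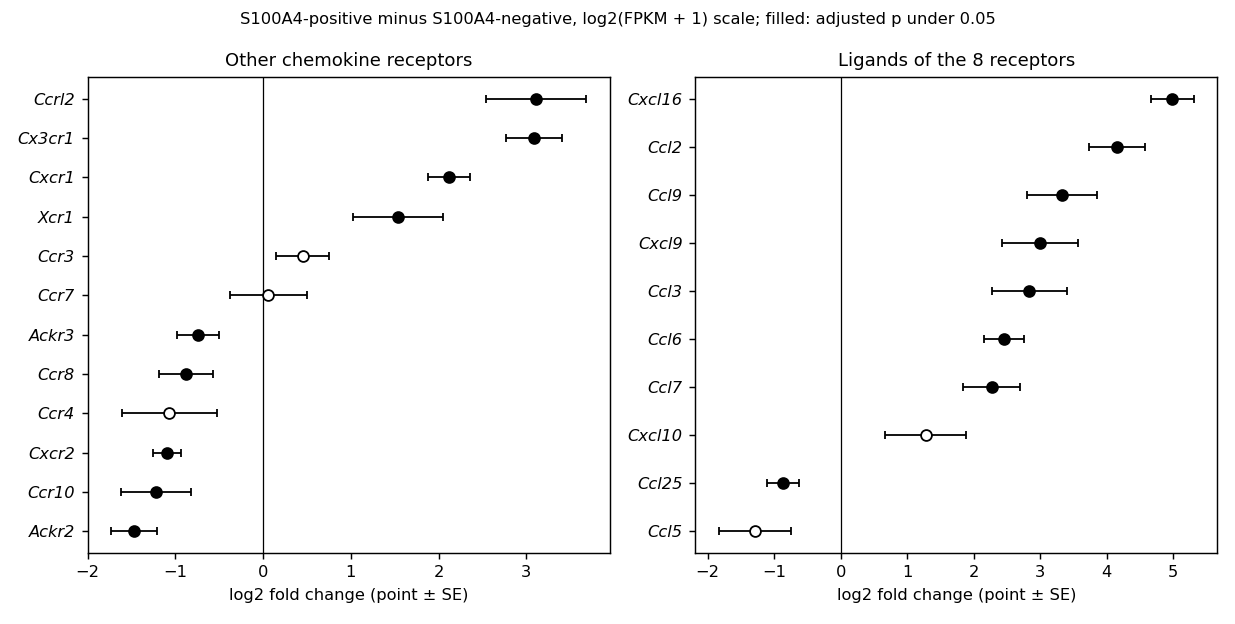
Log2 fold change (S100A4-positive minus S100A4-negative, point and SE) of the 12 other chemokine receptor genes and 10 ligand genes that passed the filter; filled points have a limma adjusted p under 0.05. Cxcl16 is farthest to the right at 4.99, and 7 of the 10 ligands are filled and above 0, beside 19.0% called higher of all genes tested.

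Genes that relay and end receptor signals went both ways. All 28 passed the filter, of which 9 rose, 7 fell and 12 were uncalled, beside 19.0% called higher and 43.4% lower of all genes tested. The median was 0.18 against -0.36 for all genes tested. Pik3r6 and Pik3r5, adaptor subunits of the phosphoinositide 3-kinase that G proteins activate, rose by 2.53 (SE 0.25) and 1.80 (SE 0.20). Among regulators of G protein signalling, Rgs16 fell by 1.76 (SE 0.27) and Rgs1 rose by 1.53 (SE 0.40), the latter from 63.0, 84.0 and 86.0 to 111, 300.0 and 333 FPKM. Counts of this list turned with the scaling: 18 were higher and 3 lower after median-of-ratios rescaling, beside 27.7% and 24.3% of all genes tested. Macrophage marker sums, given above, rose in the same libraries, and their part in the rises of ligands, other receptors and signalling genes was not tested.

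For each receptor, the genes whose log2(FPKM + 1) pattern over the 6 libraries lay closest were found among 11326 genes, after centring each on its mean. The measure was the root mean square difference in log2 units, and with 6 libraries it is only a description. Cxcr3 lay closest to Rnf125 (0.05), Pde4d (0.12) and the T cell receptor chain Cd247 (0.12), and Cxcr6 to Cd69 (0.07), Sult2b1 (0.08) and Ncald (0.09). Nearest to Cxcr5 were the B cell receptor chain Cd79a (0.05), Fcrla (0.11) and Coch (0.13), and genes near Ccr6 were Fcer2a (0.18) and Ptpn14 (0.20). Ccr2 was matched by Pou2f2 (0.05), Rragc (0.06) and Wdr41 (0.06), and Cxcr4 by Plpp3 (0.04), D1Ertd622e (0.08) and Erp29 (0.09). For Ccr1 and Ccr9 the closest were Mir3473g (0.15), Dok3 (0.15) and Kctd11 (0.16), and Slc18a2 (0.10), Aoc2 (0.22) and Cd55os (0.22).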

How the data were processed

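RNA was sequenced in 6 libraries, 3 per group. Per the submitters' processing notes, HISAT2 2.1.0, Cufflinks and Cuffnorm were used with mm10; strand setting and annotation are not given in the sources used here. The authors deposited FPKM per gene and, in a comparison table, group means of normalized reads (a signal), log2 fold changes and p-values, whose test is not named per the file headers. Reads were recovered from FPKM and these means; 100% of 135018 values above 0 lay within 0.02 of a whole read.

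Genes with mean FPKM of at least 1 (13241) were fitted with limma 3.58.1 (R 4.3.3) after adding a pseudocount of 1 and taking log2, with an intensity trend in the prior and Benjamini-Hochberg adjustment. Ratios and shares were tested by exact two-sided permutation. Python 3.11.15, numpy 2.4.6, pandas 2.3.3 and matplotlib 3.10.9 were also used. The members and lists were chosen with earlier results of these data known. Genes outside the 8 were named by rule: up to 4 called list members with the largest change, and 3 genes of closest pattern without predicted genes, pseudogenes and receptor or antibody segments (some genes are not reported here); marker genes and others named beside a receptor were chosen after their values were seen. Positions came from GENCODE M21 (GRCm38), promoter windows from RefSeq (7 of 8 receptors matched). On simulated data for this comparison, with the 13241 genes, 19.4%, 74.6% and 100% of genes changed 1.5-fold, 2-fold and 4-fold were called, with 13 false calls. Only 67, 67 and 66 genes were changed there, and every gene had the same dispersion, 0.0193. In the real data 62.3% of genes were called. Ccr6 and Ccr9 had coefficients of variation of 54.5% and 57.3% in S100A4-negative libraries. The simulated shares therefore do not give the chance of a call for these 2 receptors. Alternatives were another pseudocount, other filters, median-of-ratios and quantile scaling, no trend, a replicate block, each library left out in turn, and limma voom on recovered reads, with the authors' size factors as an alternative added after the values were seen.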

Additional observations from a re-analysis of the deposited data

How the results depend on the processing

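All 8 receptors kept their direction in every alternative run, 119 in number, and 109 kept their call; Ccr9 gave no value with a filter of mean FPKM 5, which it does not reach. Cxcr3, Cxcr5, Cxcr6 and Ccr2 were called in each of their 15 (highest limma adjusted p 0.000551, 0.0373, 0.00691 and 0.0294). Ccr1 became called after median-of-ratios rescaling (1.00), quantile normalization (0.93) and with voom on library totals (0.74) or the authors' size factors (1.12); Cxcr4 was called after rescaling (0.87) and with voom and the authors' size factors (0.87). Leaving out 1 library, the log2 fold change ranged from 0.45 to 0.86 for Ccr1, from -1.44 to -0.53 for Ccr6 and from -1.18 to -0.45 for Ccr9, which were called in some of these fits. Receptors called higher numbered 3 after rescaling, 2 after quantile normalization, 2 with voom on library totals, 3 with size-factor voom, and 1 to 2 leaving out a library, against 1. Other chemokine receptors called higher numbered 2 with a filter of 5, and those called lower 3 without a filter, 1 with a filter of 5, 2 after rescaling, quantile normalization or size-factor voom, and 2 to 4 leaving out a library, against 5. Ligands called lower numbered 0 with a filter of 5 (fewer genes tested), rescaling, quantile normalization or voom with the authors' size factors, and 0 to 2 leaving out a library, against 1. Signalling genes called numbered 18 higher and 3 lower with rescaling and also with size-factor voom, against 9 and 7. The share of Cxcr4 reversed among 22 receptors (-0.04). Leaving out a library, the log2 ratio to the CD3 chains ranged from -0.0025 to 0.33 for Cxcr3, and that to B cell markers from -0.23 to 0.79 for Ccr9 and from -0.83 to 0.42 for Cxcr6. Where not stated, the cause was not tested. Same-numbered libraries correlated at 0.38, 0.08 and 0.37 in their deviations, and differently numbered ones at -0.38 to 0.15. The labels do not say whether the numbers pair the libraries, and the main fit did not pair them. With the replicate block the receptors called stayed at 1 higher and 3 lower (Cxcr3 -2.37) while calls over all genes rose from 8253 to 8857. The SE fell from 0.38 to 0.16 for Cxcr5 and from 0.43 to 0.33 for Ccr6. It rose from 0.26 to 0.29 for Ccr1 and from 0.22 to 0.25 for Cxcr6. The lowest count behind a receptor was 116 reads (Ccr9), a counting error of 9.29%, below the spread between libraries.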

Other observations

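On chromosome 9, 4 of the 8 receptors, Ccr9, Cxcr6, Ccr1 and Ccr2, lie within 435.1 kb, with 2 of the other listed receptors, Xcr1 and Ccr3, between them. Neighbours there went in different directions. From Ccr9, which was not called, Cxcr6 starts 128.0 kb away and fell by 1.43, and Xcr1 starts at 173.9 kb and rose by 1.54, a call that 5 of the 6 libraries each end when left out. Ccr1, at 283.7 kb, had a difference of 0.66 and Ccr3, at 343.5 kb, one of 0.45 (limma adjusted p = 0.219), and neither was called. Ccr2, at 423.5 kb, rose by 0.87. Ccr3, the eotaxin receptor of eosinophils, was at 0.414, 1.77 and 1.03 FPKM in S100A4-negative and 2.52, 1.68 and 1.15 in S100A4-positive libraries, which overlapped.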
